A study of Mus musculus with 8 samples.

Results

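Anti-HA ChIA-PET of mouse liver, where REV-ERBα carried the HA tag, listed 40530 chromatin loops at zeitgeber time (ZT) 22, and 501 of them were also listed at ZT10. They were chosen by a rule on both files: each of the 2 anchors of a ZT22 loop had to overlap by at least 1 bp the matching anchor of one ZT10 loop. They made up 1.24% of the ZT22 loops (95% Wilson interval 1.13 to 1.35) and matched 520 of 57807 ZT10 loops, 0.900% (0.826 to 0.980). Over the 6 anti-HA libraries used, 277163 loops were listed. Because the rule used the loop lists of both times, spans, anchor widths and PETs at ZT22 and ZT10 are given as a description with no test.

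REV-ERBα, encoded by Nr1d1, is a nuclear receptor of the circadian clock that recruits the NCoR corepressor with the histone deacetylase HDAC3 and represses clock and metabolic genes. It binds single AGGTCA half-sites next to an A/T-rich stretch, or RevDR2 elements, in which 2 such half-sites stand in tandem with 2 bases between them. In mouse liver the protein is abundant in the light phase near ZT10 and scarce near ZT22. ZT counts hours from lights on. ChIA-PET joins DNA ends that lie close together in fixed nuclei and keeps those that an antibody pulls down. A paired-end tag (PET) is a read pair with 1 end in each of the 2 anchors of a loop.

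The study asked how REV-ERBα loops differ with time of day and with a part of the protein labelled hIDR. The ZT22 and ZT10 libraries, 1 each, came from livers of knock-in mice (genotype REV-ERBa3HA/3HA, no virus), whose own REV-ERBα carries the tag. The other 4 came at ZT10 from REV-ERBaf/fREV-ERBbf/f mice, with both REV-ERB genes floxed, given AAV8-TBG-Cre. Of these, 2 had AAV8-TBG-3HA-REV-ERBa-WT (WT) and 2 had AAV8-TBG-3HA-REV-ERBa-delhIDR (dhIDR), a form that by its label lacks the hIDR. The TBG promoter is active in hepatocytes, so other liver cells would keep the floxed genes. The labels do not say that the 2 libraries of a group came from separate mice, so a p-value here covers the spread of these libraries alone, and that spread may be technical.

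Every file lists only loops with at least 3 PETs. A loop that no loop of a library matched at both anchors is called unlisted there and is written below as 0. Such a 0 can stand for up to 2 PETs, or for a listed loop whose anchors just missed. Listed PETs numbered 131476 at ZT22 and 319804 at ZT10, and between 103224 and 203124 in the AAV libraries. These sums leave out loops below the minimum and do not give the sequencing depth. Intervals on single counts are exact Poisson 95% intervals. All intervals cover counting error only, and PCR copies of one ligation product would make them too narrow. Markers of 5 other liver cell types gave no gene with such a loop (0 of 32 genes), and 2 of 6 hepatocyte markers did, Apoa1 and Cps1. Over all protein-coding genes the share was 1.45%, so the 0 of 32 is near the background and does not separate the cell types.

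Anchors of 70 of the loops (14.0%) reached into the promoter window of a gene, 250 bases before to 50 after its start, in RefSeq's GRCm38.p6 annotation. The share was 2.76% over all ZT22 loops and 16.7% over all ZT10 loops. The loops at both times had wider anchors and shorter spans than most ZT22 loops, and the part of these in the share was not tested. The windows of 4 named liver genes are shown because loop anchors at both times lay on them. They were chosen after their values were seen. They are Adra1b, the α1B adrenergic receptor through which hepatocytes sense adrenaline (chr11:43901188-43901487, minus strand), and Ugt1a1, which conjugates bilirubin (chr1:88211709-88212008, plus strand). The others are Slco1a1, an organic anion uptake transporter (chr6:141946913-141947212, minus strand), and Cat, the peroxide-degrading enzyme catalase (chr2:103485104-103485403, minus strand). Each is written 5′ to 3′ on the gene's strand. Capitals mark the half-site AGGTCA or its complement TGACCT.
Adra1b promoter: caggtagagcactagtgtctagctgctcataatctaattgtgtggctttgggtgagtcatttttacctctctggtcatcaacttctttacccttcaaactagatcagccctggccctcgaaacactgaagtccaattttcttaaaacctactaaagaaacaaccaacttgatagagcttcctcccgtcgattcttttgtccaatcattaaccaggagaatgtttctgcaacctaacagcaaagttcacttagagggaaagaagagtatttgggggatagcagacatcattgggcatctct
Ugt1a1 promoter: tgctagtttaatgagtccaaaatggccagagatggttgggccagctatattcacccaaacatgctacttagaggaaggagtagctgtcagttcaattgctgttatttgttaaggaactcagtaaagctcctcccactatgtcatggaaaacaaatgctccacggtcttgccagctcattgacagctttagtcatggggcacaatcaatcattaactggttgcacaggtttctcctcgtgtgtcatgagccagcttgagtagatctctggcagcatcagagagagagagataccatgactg
Slco1a1 promoter: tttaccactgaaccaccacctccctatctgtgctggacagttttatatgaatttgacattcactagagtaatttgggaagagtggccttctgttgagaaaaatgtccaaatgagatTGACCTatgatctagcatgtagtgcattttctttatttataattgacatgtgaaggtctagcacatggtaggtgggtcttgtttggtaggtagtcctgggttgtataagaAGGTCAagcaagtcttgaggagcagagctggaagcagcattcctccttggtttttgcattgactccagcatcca
Cat promoter: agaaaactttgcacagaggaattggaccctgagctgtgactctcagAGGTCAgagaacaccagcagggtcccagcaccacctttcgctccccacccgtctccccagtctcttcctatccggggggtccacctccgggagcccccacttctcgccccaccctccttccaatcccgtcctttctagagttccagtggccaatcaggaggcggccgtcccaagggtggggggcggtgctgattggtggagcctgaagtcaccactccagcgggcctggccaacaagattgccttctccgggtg
A ZT22 anchor covered all 300 bases of the Adra1b and Slco1a1 windows, 233 bases of the Ugt1a1 window and 222 bases of the Cat window. The Slco1a1 window held 2 half-sites and the Cat window 1, while those of Adra1b and Ugt1a1 held 0. Over all 94 promoter windows at these loops, 17 held a half-site on either strand (18.1%, 95% Wilson interval 11.6 to 27.1), and 16.3% of all 32851 windows did. Some genes gave several overlapping windows that were counted separately, so the windows are not independent and the interval is too narrow. The RevDR2 element occurred in 0 of the 94 windows and in 3 of all windows (0.00913%). The site AGCT, where AluI cut the chromatin in this protocol, was in 88.3% of the 94 windows and 77.6% of all. A match of letters is no measured binding site, and a window without one says nothing of the protein. Sequences of anchors away from promoters were not analysed here.

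The loops at both times were short. Their median span, between anchor midpoints, was 18.5 kb at ZT22 (95% interval of the median 16.9 to 20.4), with quartiles at 11.6 and 34.8 kb. The median was 528 kb over all ZT22 loops and 40.2 kb over all ZT10 loops. Of the 501, 270 spanned under 20 kb, 199 from 20 to 100 kb, 29 from 100 to 500 kb and 3 over 500 kb. In those classes the loops were 3.65%, 3.08%, 0.469% and 0.0147% of all ZT22 loops of the same span. Spans over 500 kb made up 50.5% of all ZT22 loops, so the long loops of that library had few partners at ZT10.

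**Figure D1:**
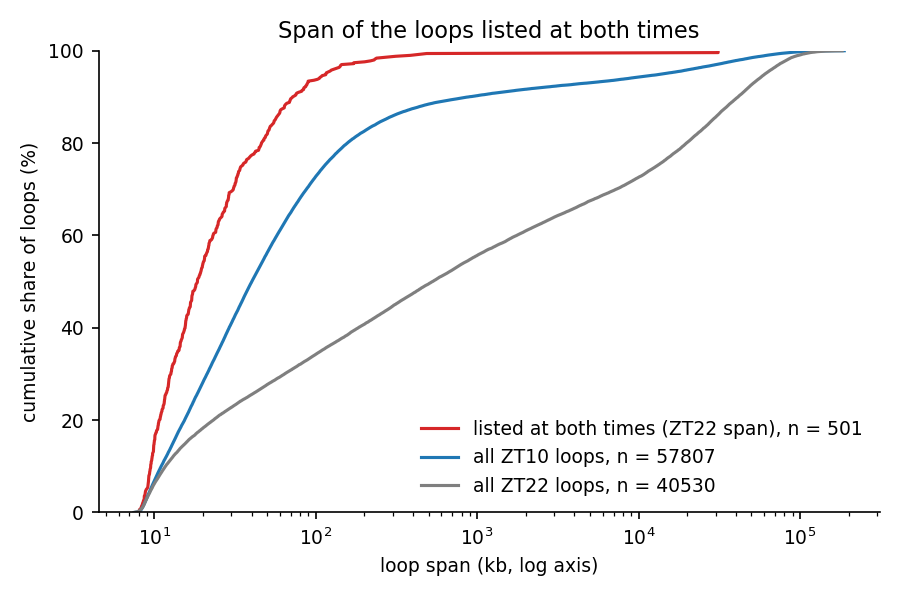
Cumulative share of loops (%) by span (kb, log axis) for the 501 loops listed at both times, all 57807 ZT10 loops and all 40530 ZT22 loops. The loops listed at both times lie to the left, with a median of 18.5 kb, and a short step at the right end holds the 3 loops of about 31 Mb.

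Their anchors were wide for ZT22. The median ZT22 anchor was 984.5 bp wide, against 626 bp over all ZT22 loops. Both anchors were at least 700 bp wide in 336 of the 501 (67.1%) and in 11.6% of all ZT22 loops. Among ZT22 loops with such anchors, 7.12% were also listed at ZT10, and among the rest 0.461% were. The ZT10 loops they matched had a median anchor of 1858.5 bp, against 1067 bp over all ZT10 loops. Wider anchors overlap more easily, and shares with anchors of equal size are given with the PETs.

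The intervals were similar and never the same at both times. In 197 loops both ZT22 anchors lay wholly inside the ZT10 anchors. The smaller of the 2 overlaps had a median of 645 bp, and the spans at ZT22 and ZT10 differed by less than 1 kb in 358. No loop had identical intervals. In all, 470 matched 1 ZT10 loop and 31 matched 2. On the ZT10 side, 508 loops matched 1 of the 501 and 12 matched 2, so 2 entries at ZT22 can share one ZT10 count. Merging overlapping loops under 500 kb left 418 loci, of which 358 held 1 loop and 60 held 2 to 5.

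The rule's edge was fine. Just inside, loops on chromosome 6 (119395611 to 119406527 and 134666648 to 134699635) and chromosome 9 (48585764 to 48617551) overlapped by 1 bp at their smaller overlap. They had 3 PETs each at ZT22 and 4, 12 and 10 at ZT10. Just outside, loops on chromosomes 8 (from 36483574), X (from 85859804) and 3 (from 104420684) missed by 4, 4 and 5 bp. They had 3 PETs each at ZT22 and 3, 4 and 3 at ZT10.

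Sharing anchors was more common than sharing a loop. Of all ZT22 loops, 34184 had no anchor on any ZT10 anchor, 5155 had 1 and 1191 had 2. In 690 of those 1191 the 2 anchors lay only on anchors of different ZT10 loops. The ZT10 anchors of the loops listed at both times joined a median of 6 ZT10 loops, against 3 for any ZT10 anchor. For 222 of the 501 (44.3%) at least 1 such anchor joined 10 or more ZT10 loops, and for 25.4% of all ZT10 loops. The matched ZT10 anchors were wider than most, and the part of width in these counts was not tested.

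At ZT22 the loops stood near the floor of the file. Of the 501, 372 had 3 PETs, 91 had 4, 26 had 5 and 12 had 6 or more, up to 14. At ZT10 the matched loop with the largest overlap had a median of 9 PETs (95% interval of the median 8 to 11), quartiles of 4 and 25, and a maximum of 312. There, 248 had at least 10 PETs, 68 at least 50, 27 at least 100 and 10 at least 200, while 79 had 3. In 65 the count was 3 at both times.

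Taken from the matched ZT10 loop with the largest overlap, counts were higher at ZT10 in 409 of the 501, equal in 74 and lower in 18. Where 2 ZT10 loops matched, that choice can set the direction. A loop on chromosome 1 (from 132325526) had 4 PETs at ZT22, 3 in the chosen ZT10 loop and 45 over both. Of all 97817 loops listed at either time, 59.0% had more PETs at ZT10. Nothing is read from these counts, since the rule used them. The ZT10 library had 2.43 times the listed PETs of the ZT22 library. Scaled to that, the median ratio of ZT10 to ZT22 PETs was 1.23, down from 3 unscaled, and 278 loops were above 1 and 223 below. Plscr1, which encodes a phospholipid scramblase, had the widest reverse gap, with 9 PETs at ZT22 and 6 at ZT10 in a loop of 21.6 kb. In the other 17 such loops the counts differed by 1 PET, Pygl among them with 5 and 4.

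The share of ZT10 loops also listed at ZT22 rose with their PETs. It was 0.279% at 3 PETs, 0.602% at 4 to 5, 1.59% at 6 to 9, 2.74% at 10 to 19 and 5.68% at 20 to 49. It reached 13.9% at 50 to 99 PETs (38 of 273) and 34.8% at 100 or more (23 of 66, 95% Wilson interval 24.5 to 46.9). Anchor width rose along the same classes, from a median of 856 bp at 3 PETs to 7383 bp at 100 or more. With every anchor at both times set to 1 kb around its midpoint, an alternative added after the data were seen, the shares were 0.301% at 3 PETs, 1.85% at 10 to 19, 6.96% at 50 to 99 and 4.55% at 100 or more. The last class then held 3 of 66 loops (1.56 to 12.5). A rise up to 50 to 99 PETs was also there with equal anchors, and the share in the strongest class was lower. Cutting anchors of several kilobases to 1 kb drops most of their length, so ZT22 loops inside them can be missed. The drop in that class therefore cannot give the part that width played.

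**Figure D2:**
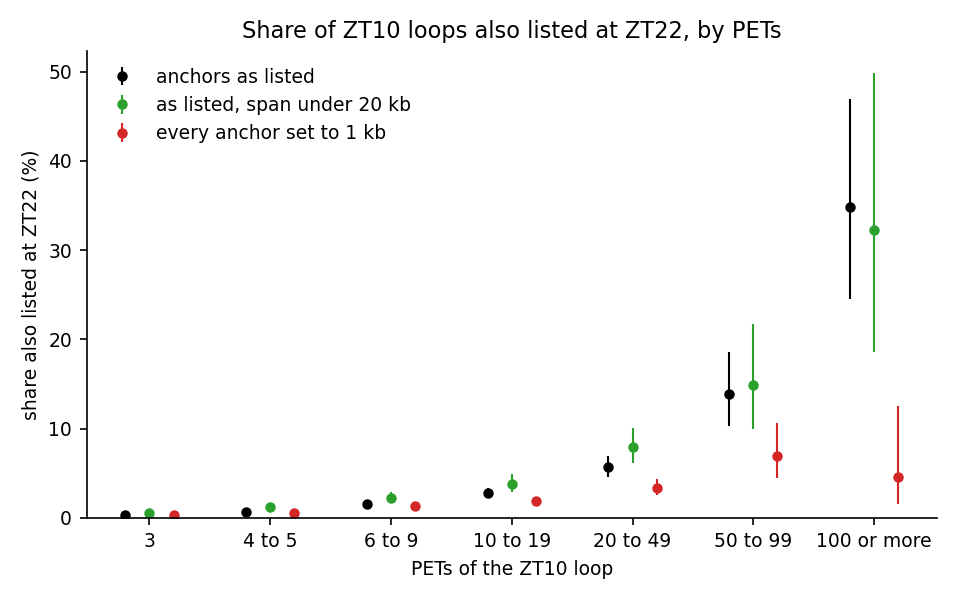
Share of ZT10 loops also listed at ZT22 (%), by the PETs of the ZT10 loop, with 95% Wilson intervals. With anchors as listed the share climbs to 34.8% at 100 or more PETs, and with every anchor set to 1 kb it is 4.55% there.

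The 20 loops with most PETs summed over both times had at least 114 PETs at ZT10 and 3 to 6 at ZT22. They stood on 16 distinct ZT10 loops, and 10 of the 20 had an anchor within 5 kb of an end of a protein-coding gene. Their ZT10 anchors were several kilobases wide, so the match there is coarse. The highest ZT10 count, 312 (278 to 349), belonged to a loop of 26.3 kb on chromosome 18 (20936322 to 20963208) with 3 PETs (0.619 to 8.77) at ZT22 and 0 in all 4 AAV libraries. It had no gene end at its ZT22 anchors. The wider ZT10 anchors reached an end of Rnf125, which encodes a ubiquitin ligase.

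The fibrinogen genes, whose products form the blood clot and are made in hepatocytes, held 3 of the loops on chromosome 3. The loop from 83019777-83020982 to 83051475-83052328 had 4 PETs at ZT22 (1.09 to 10.2) and 299 at ZT10 (266 to 335). The loop from 83005970-83006685 to 83051570-83052122 had 4 and 258. The loop from 83017214-83018276 to 83051264-83052396, had 3 and 27. Each was at 0 in all 4 AAV libraries. Their left anchors flank Fgg (83007724 to 83015056) and their right anchors lie between Fgb (83042246 to 83049863) and Plrg1, a splicing factor gene. These 3 loops held all 11 ZT22 PETs of Fgg and of Fgb. At ZT10 they held 584 of 1216 PETs at Fgg and 584 of 930 at Fgb. The most looped ZT10 pair of all, between Fga and Fgg with 374 PETs, was not listed at ZT22.

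Of the core clock genes, 1 of 20 had a loop at both times, Npas2, whose product pairs with BMAL1 as CLOCK does and which REV-ERBα is known to repress. Across all protein-coding genes, 317 of 21887 (1.45%) had one. A loop of 125 kb joined 39067449-39068493 to 39192216-39193524, just before the gene (chromosome 1, 39193702 to 39363240). It had 3 PETs at ZT22 (0.619 to 8.77), 64 at ZT10 (49.3 to 81.7), 5 and 6 in WT replicates 1 and 2, and 0 in both dhIDR replicates. Both WT libraries were above both dhIDR libraries. With 2 libraries against 2, the smallest p that an exact two-sided permutation test can give is 0.333. Each dhIDR library could also hold up to 2 unlisted PETs, or a listed loop whose anchors just missed. A second loop of 89.7 kb, from 39102711-39103814 to 39192085-39193832, had 4 PETs at ZT22 and 90 at ZT10 and was at 0 in all 4 AAV libraries. Both loops held 7 of the 10 ZT22 PETs of Npas2 and 154 of its 512 ZT10 PETs.

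Acute-phase genes, which hepatocytes switch on in inflammation, were the list with most members at these loops, 7 of 18. The list, like the others, was compiled with earlier results of these data known, its genes partly neighbour each other, and no test was made. Over all protein-coding genes 1.45% had such a loop, and 6.19% of those with PETs in both knock-in libraries. Among list genes with PETs in both, 8 to 17 per list, it was 63.6% for acute phase and 33.3% for secreted proteins. It was 25% for xenobiotic, 23.5% for sterol and bile acid and 20% for fatty acid oxidation genes. Corepressor and chromatin architecture genes, taken as 1 list, had 12.5%. Glucose, core clock and lipogenesis genes had 11.1%, 10% and 8.33%, and liver transcription factors 0%. Serum amyloid genes Saa1, Saa2 and Saa3 shared loops of 26.7 and 32.6 kb on chromosome 7, each with 3 PETs at ZT22 and both on the same ZT10 loop of 93 PETs. Itih3, encoding a heavy chain of inter-α-trypsin inhibitor, had a loop with 4 PETs at ZT22 and 67 at ZT10, and Itih4 one with 3 and 4. Crp, encoding C-reactive protein, had 3 and 29 PETs, and Lbp, encoding the lipopolysaccharide-binding protein, 5 and 7. All 7 of these genes' loops were at 0 in the AAV libraries. Every ZT22 PET of Saa1, Saa2, Crp, Itih3, Itih4 and Lbp was in a loop that ZT10 also listed, and 6 of 13 were at Saa3. All ZT22 PETs were in such loops for 117 of the 317 genes with one (36.9%). Nothing is read from this, since the genes were taken for having such a loop and those 6 had only 3 to 6 ZT22 PETs each.

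Secreted plasma proteins gave 5 of 23 genes. Besides Fgg and Fgb they were Apoa1 and Apoc3, apolipoproteins of plasma lipoprotein particles, and Kng1, encoding kininogen. Apoa1 and Apoc3 shared loops of 29.1 and 13.5 kb on chromosome 9 with 3 PETs each at ZT22 and 15 and 3 at ZT10. Kng1 had 3 and 3. Cps1, the first enzyme of the urea cycle and a hepatocyte marker, had 3 and 8.

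Sterol and bile acid genes gave 4 of 21. Cyp7a1, which sets the rate at which cholesterol becomes bile acid, had a loop of 24.1 kb from 6238106-6239153 to 6262171-6263271, at lower coordinates than the gene (chromosome 4, 6265612 to 6275632). It had 3 PETs at ZT22, 25 at ZT10 and 0 in the 4 AAV libraries, and was the only ZT22 loop of Cyp7a1. Slc10a1, the bile acid uptake carrier, had 4 and 4 PETs, and the bile acid receptor gene Nr1h4 3 and 4. Their counts differed by at most 1 PET between the times.

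Genes of fuel metabolism came from 3 lists. Lipogenesis had 1 of 27 genes, Dgat2, which makes triglyceride, with 3 PETs at ZT22 and 22 at ZT10. Glucose and glycogen had 1 of 16, the liver glycogen phosphorylase gene Pygl. Fatty acid oxidation had 2 of 18. Hadha, a subunit of the mitochondrial trifunctional protein whose other subunit Hadhb is its neighbour, had loops of 3 and 4 PETs at ZT22 with 9 and 6 at ZT10. The second matched 2 ZT10 loops, with 33 PETs over both. None of these loops was listed in an AAV library.

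Xenobiotic metabolism gave 2 of 18 genes. Ugt1a1, whose promoter is printed above, stood at 3 loops on chromosome 1 with 3 PETs each at ZT22 and 107, 155 and 113 at ZT10, all at 0 in the AAV libraries. The Ugt1a genes overlap, so up to 9 of them count for the same loop. Around Hjurp and Mroh2a next to them lay 2 more, and this locus of 5 was the fullest. Abcc2, which exports conjugates into bile, had 3 and 5 PETs. Slco1a1 had 6 PETs at ZT22 and 33 at ZT10 in a loop of 15.0 kb, and Cat 3 and 36 in one of 25.3 kb. Both were at 0 in the AAV libraries. Slco1a1 had no other ZT22 loop.

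Corepressor and architecture genes gave 1 of 15, Tbl1xr1, a subunit of the NCoR complex that REV-ERBα recruits. Its loop of 88.3 kb had 3 PETs at ZT22, 101 at ZT10 and 0 in the AAV libraries. Of 18 liver transcription factor genes 0 had a loop at both times. PETs in both libraries were listed for 8 of them, and 6.19% of all 5119 genes with PETs in both libraries had such a loop, so a count of 0 is near the background.

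Further genes stood at loops among the 20 with most PETs. Adra1b on chromosome 11 had a loop from 43887836-43889469 to its promoter at 43899634-43901811 with 6 PETs at ZT22 (2.20 to 13.1) and 205 at ZT10 (178 to 235). A nested loop of 8.31 kb, on the same ZT10 loop, had 3 PETs at ZT22 and 3 in WT replicate 2. Another loop, of 273 kb, had 3 PETs at both times. Slc34a2, a sodium-phosphate cotransporter, had loops of 3 and 4 PETs at ZT22 with 289 and 9 at ZT10. Aass, the first enzyme of lysine breakdown, had 2 loops of 3 and 4 PETs on one ZT10 loop of 233. Qsox1, an enzyme that forms disulphide bonds in secreted proteins, had 3 and 168, and the initiation factor gene Eif1a 3 and 133. Prkce, which encodes a protein kinase C, held both anchors of 2 loops with 3 PETs each on one ZT10 loop of 251.

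Gene ends were common at these anchors. Of the 501 loops, 256 (51.1%, 95% Wilson interval 46.7 to 55.5) had 1 or both anchors within 5 kb of an end of a protein-coding gene. Over all loops the share was 26.2% at ZT22 and 45.5% at ZT10. Below 20 kb it was 47.4% in the 501, 22.8% in other ZT22 loops and 47.4% in other ZT10 loops. From 20 to 100 kb it was 58.8%, 30.8% and 47.9%. In both classes the share was above that of other ZT22 loops, whose anchors are narrower. With every anchor set to 1 kb it was 47.4% against 22.9% for other ZT22 loops below 20 kb, and 58.3% against 31.4% from 20 to 100 kb. For 54 (10.8%) both anchors were at gene ends, against 4.07% of all ZT22 loops and 10.7% of all ZT10 loops. For 184 (36.7%) both lay inside 1 gene, a count with no share over all loops to set beside it. Of the 317 genes, 279 had 1 such loop, 30 had 2 and 8 had 3. For 117 of the 317, all ZT22 PETs were in loops that ZT10 also listed.

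The 3 longest loops stood apart. They joined chromosome 17 from 39843001 to 39848524, over the ribosomal RNA pseudogene Rn18s-rs5 (39846354 to 39848202) and the lncRNA AY036118, to one segment in the lncRNA Gm46595 (70963158 to 70964293), about 31.1 Mb away. They had 8, 14 and 5 PETs at ZT22 and 10, 20 and 20 at ZT10, and 14 was the highest ZT22 count of the 501. Reads of near-identical ribosomal copies can map to such a place, so these loops are uncertain. Loops from the first segment numbered 2, with 6 PETs, in dhIDR replicate 2, and 0 in the other 3 AAV libraries.

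The AAV libraries were not used by the rule. Of the 501 loops, 487 were listed in none of the 4, 12 in 1 and 2 in 2. WT replicate 1 listed 5 (0.998%, 95% Wilson interval 0.427 to 2.31) and WT replicate 2 listed 4 (0.798%, 0.311 to 2.03). dhIDR replicate 1 listed 7 (1.40%, 0.678 to 2.86). dhIDR replicate 2 listed 0 (0%, 0 to 0.761). Over all ZT22 loops these libraries listed 0.0370%, 0.0642%, 0.0321% and 0.0296% in the same order, and over all ZT10 loops 0.228%, 0.298%, 0.597% and 0.242%.

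Against other ZT22 loops, the loops found at both times were listed again more often in 3 of the 4 libraries by counting error. Other ZT22 loops were listed at 0.0250%, 0.0550% and 0.0150% in WT replicates 1 and 2 and dhIDR replicate 1. With both anchors at least 700 bp wide, other ZT22 loops reached 0.0913%, 0.251% and 0.114%. For WT replicate 2 the intervals then met (0.140 to 0.449 against 0.311 to 2.03). Below 20 kb the shares were 1.48%, 0.741% and 1.48%, against 0.0841%, 0.252% and 0.0841% for other ZT22 loops, and in WT replicate 2 these intervals met (0.203 to 2.66 against 0.160 to 0.398). From 20 to 100 kb, where 199 of the loops lie, WT replicate 1 listed 0, WT replicate 2 listed 1 (0.503%, 0.0888 to 2.79) and dhIDR replicate 1 listed 3 (1.51%, 0.514 to 4.34). Of 6272 other ZT22 loops of that span the same libraries listed 3, 4 (0.0638%, 0.0248 to 0.164) and 0, so the intervals were apart in dhIDR replicate 1 alone. Loops of one library are not replicates, so these shares carry no p-value. With every anchor set to 1 kb, WT replicate 1 listed 0.798% of the 501 and 0.0375% of other ZT22 loops, WT replicate 2 0.798% (0.311 to 2.03) and 0.0575% (0.0383 to 0.0862), and dhIDR replicate 1 1.80% and 0.0225%. The higher shares over all spans in these 3 libraries were also there with equal anchors. dhIDR replicate 2 then listed 1 of the 501 (0.200%, 0.0352 to 1.12) and 0.0350% of the others, so the 0 in dhIDR replicate 2 depends on the anchor intervals.

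**Figure D3:**
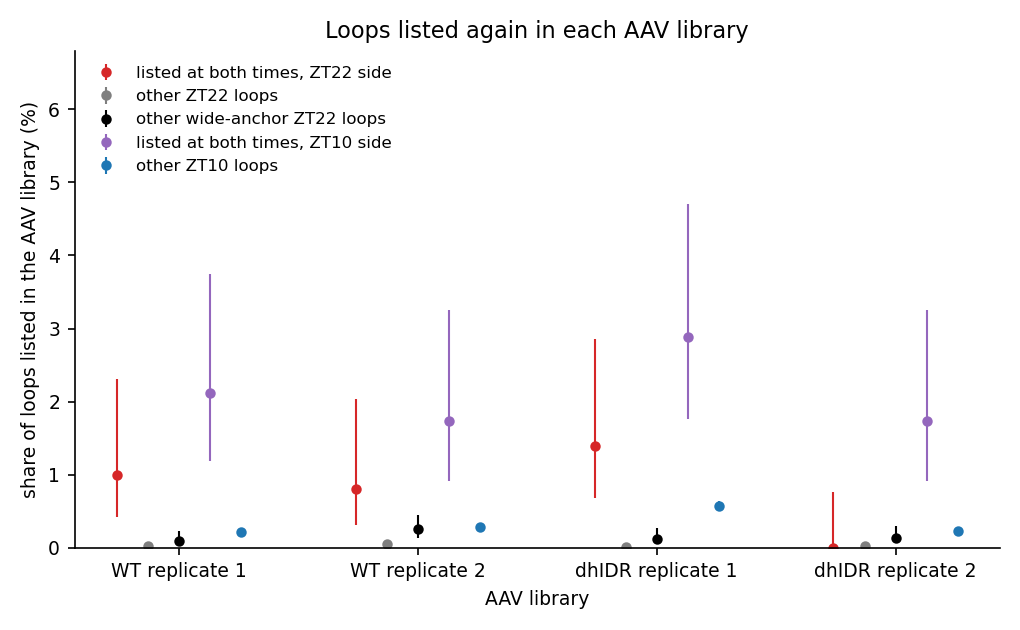
Share of loops listed again in each AAV library (%), with 95% Wilson intervals, for the loops listed at both times (501 on the ZT22 side and the 520 they match at ZT10) and for the other loops of each time. In dhIDR replicate 2 the ZT22 side stands at 0 and the ZT10 side at 1.73%.

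On the ZT10 side, whose anchors are wider, the 520 matched loops were listed at 2.12% and 1.73% in WT and at 2.88% and 1.73% in dhIDR. Other ZT10 loops were listed at 0.211%, 0.285%, 0.576% and 0.229% in the same order. With every anchor set to 1 kb the shares were 1.15%, 0.577%, 0.962% and 0.385% for the matched loops and 0.166%, 0.222%, 0.466% and 0.187% for the others. The intervals were then apart in WT replicate 1 alone (0.530 to 2.49 against 0.136 to 0.203). These matched loops also had more PETs than other ZT10 loops, and the part of PETs in this was not tested.

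Between the constructs the loops did not differ by more than the spread of the libraries. The share listed was 0.898% ± 0.141 in WT and 0.699% ± 0.988 in dhIDR (SD, n = 2 each). The difference of 0.200 percentage points gave p = 1 in the exact two-sided permutation test, whose smallest p here is 0.333. PETs of the matching AAV loops per 10000 listed PETs were 1.65 and 0.738 for WT, against 1.35 and 0 for dhIDR, a difference of 0.520 (p = 0.667, same exact test). Without dhIDR replicate 2 the share difference was -0.499 points and that of PETs -0.154, so 1 library sets the direction. With the left-out region on chromosome 11 kept, the share difference was 1.81 points (p = 0.333, exact test).

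The 2 loops listed in 2 AAV libraries were the longer Npas2 loop and one of 14.4 kb on chromosome 10 (53407239-53408461 to 53421739-53422843). The latter had 3 PETs at ZT22, 66 at ZT10, 3 in WT replicate 1, 6 in dhIDR replicate 1 and 0 in the other 2 libraries. It has no protein-coding gene end at its anchors, and 1 library of each construct listed it. The other 12 had 3 PETs in 1 AAV library. WT replicate 1 listed loops at Tcim and inside Dnase2b and Ppargc1b. WT replicate 2 listed loops at Adra1b and Pdlim4 and inside Nav2. dhIDR replicate 1 listed loops at Vps13d, Cdk17 and Gclc, which encodes the rate-limiting subunit of glutathione synthesis, inside Epb41l4b and Nav2, and on chromosome 8 (from 56278159). The Nav2 pair shows how coarse the listing is, since its 2 ZT22 loops share one ZT10 loop of 154 PETs and each was listed in a library of another construct.

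**Figure D4:**
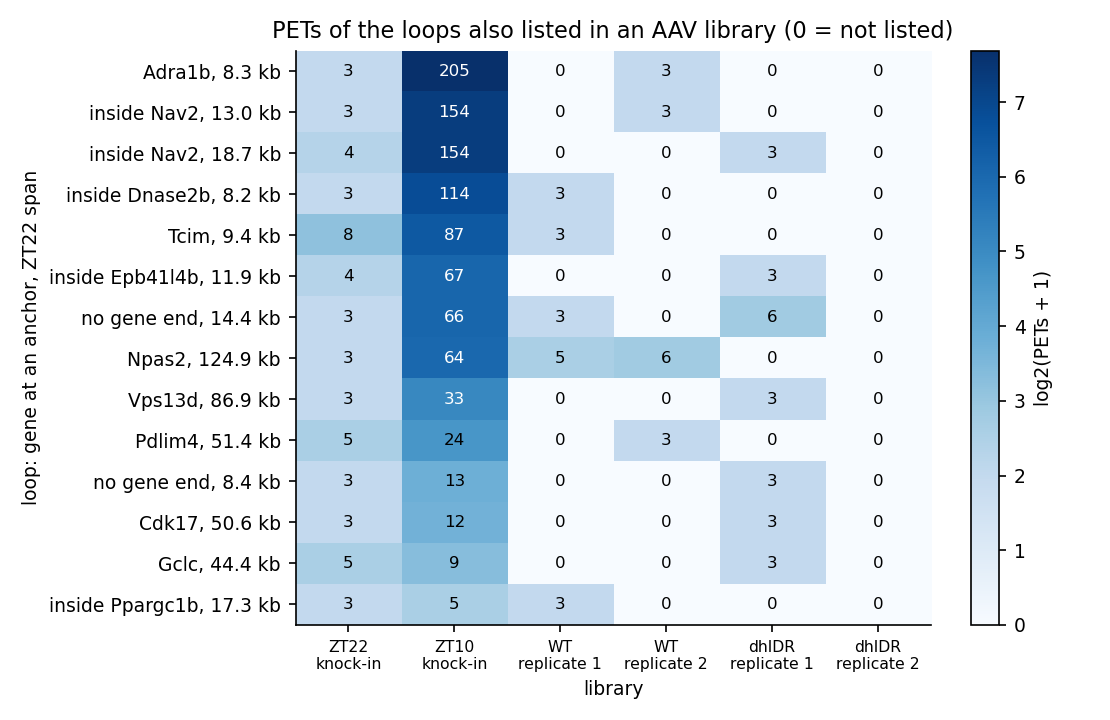
PETs in each of the 6 libraries for the 14 loops also listed in an AAV library, ordered by ZT10 PETs and coloured by log2(PETs + 1), with 0 for unlisted. The Npas2 loop alone has counts in both WT libraries (5 and 6), and the column of dhIDR replicate 2 is empty.

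Single genes and anchors were also followed in the AAV libraries. Of the 317 genes at these loops, WT replicate 1 listed PETs for 151 and WT replicate 2 for 206, in any loop. The dhIDR replicates listed PETs for 220 and 173. That was 47.6%, 65.0%, 69.4% and 54.6%. Of all 5119 genes with PETs at both knock-in times the shares were 42.2%, 59.7%, 61.2% and 50.2%. The shares at the 317 were higher in each library, a difference that was not tested. Midpoints of the ZT22 anchors lay on an anchor of the AAV library in 6.29%, 7.88%, 10.5% and 5.89% of cases. For other ZT22 loops under 100 kb they did in 3.42%, 5.93%, 4.98% and 3.90%. On the ZT10 side the gaps were smaller. Midpoints of the matched ZT10 loops did so in 5.29%, 8.08%, 8.65% and 4.90%. Those of other ZT10 loops did so in 4.07%, 5.77%, 7.65% and 4.63%. There the Wilson intervals were apart in WT replicate 2 alone (6.57 to 9.89 against 5.63 to 5.90). The fibrinogen gene Fgg had 3 and 5 PETs with the full-length construct and 0 in both dhIDR replicates, while Fgb had 9 and 0 against 7 and 4. Npas2 had 23 and 19 PETs with the full-length construct and 4 and 3 without the hIDR. These 3 genes were picked after their values were seen. For Fgg and Npas2 both WT libraries were above both dhIDR libraries, and for Fgb the groups overlapped. Of all 18232 genes with PETs in an AAV library, 7.05% had both WT libraries above both dhIDR libraries, and of the 299 such genes at these loops 24 did (8.03%), a share near the background. The other direction was more common, with both dhIDR libraries above both WT libraries. It held for 47 of the 299 (15.7%) and for 10.9% of all 18232, a difference that was not tested.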

How the data were processed

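Of 8 in-situ ChIA-PET samples, the 6 made with anti-HA beads were analysed. Those made with anti-CTCF were not used here. Each deposited file gives pairs of anchor intervals with the raw count of PETs joining them, per library and not normalized. Per the labels' protocols, liver nuclei were fixed with formaldehyde and EGS and cut with AluI, and the religated, sonicated chromatin was pulled down, tagmented and sequenced in pairs. Per the submitters' processing notes the build was mm10, and coordinates are as deposited. The aligner, duplicate filter and loop caller are not given in the sources used here. Mitochondrial loops and chromosome 11 from 3.1 to 3.3 Mb were left out.

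Members, gene lists (10) and marker lists (6) were chosen with earlier results of these data known. A member's ZT10 value is that of the matched loop with the largest summed overlap. Named genes lie within 5 kb of an anchor of the 20 members with most summed PETs, of members listed in 2 AAV libraries, of core clock genes, and of up to 3 genes per other list. Plscr1, Slco1a1, Cat, Rnf125, Gclc, the other members listed in 1 AAV library, further list genes and the AAV counts of genes were named after their values were seen. Symbols and promoters are RefSeq's (21887 protein-coding genes). Some genes that the rule takes have no values given. The gene table gives no exons, so exonic and intronic positions were not used here.

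WT and dhIDR were compared by an exact two-sided permutation test over 4 libraries. Shares have Wilson intervals, medians binomial ones. Matching was tested on simulated data. Python 3.11.15, pandas 2.3.3, scipy 1.17.1 and statsmodels 0.14.6 were used. Alternatives changed the overlap, PET minimum, widths, gene window, region, PET sum and libraries.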

Additional observations from a re-analysis of the deposited data

Results flagged for a closer look

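Data left out of the comparisons also held loops listed at both times. In the chromosome 11 region from 3.1 to 3.3 Mb, 24 of 67 ZT22 loops were listed at ZT10 as well. On the mitochondrial genome, 1 ZT22 loop of 7300 PETs was listed at ZT10, where 2 loops held 49244 PETs.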

How the results depend on the processing

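Counting from the ZT10 side gave 520 loops, keeping the chromosome 11 region 525, and 300 bp of overlap 418. Extending anchors by 1 kb gave 916, and requiring 4 PETs at both times 116. The share with a gene end was 34.7% for a 2 kb and 74.1% for a 25 kb window. The median span was 16.9 kb with ZT22 anchors of at least 700 bp. The median ZT10 count was 12 PETs with 300 bp of overlap, 6 with extended anchors, 14 with 4 PETs or more (ZT22 median 4) and 7 with every anchor set to 1 kb. With 1 kb anchors, chosen after seeing the data, 381 loops were listed at both times, of which 369 were among the 501.

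The WT minus dhIDR share difference reversed to -0.431 points with 4 PETs or more and to -0.394 with 1 kb anchors, and the difference in PETs per 10000 to -0.0434 with 1 kb anchors. Leaving out each replicate gave -0.499 to 0.898 points and -0.154 to 1.19 PETs per 10000, negative without dhIDR replicate 2. With the replicate number as a block (replicate block), the differences stayed 0.200 points (p = 1) and 0.520 (p = 0.5, the smallest 2 pairs allow, exact sign-flip permutation). The labels give shared numbers but no pairing. Deviations of same-numbered libraries correlated at r = 0.120 over 2576 bins of 1 Mb, which are not independent. Leaving out the 3 loops over 500 kb, also chosen after seeing the data, left every one of the 7 results on the same side. The listing floor of 3 PETs limits all ZT22 counts.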
